A study of Mus musculus with 3 samples.

Results

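The genes described here are the adult hemoglobins and a set of erythroid genes, measured in a cranial suture of the mouse: the alpha globins Hba-a1 and Hba-a2, the beta globins Hbb-b1 and Hbb-b2, the heme synthesis enzyme gene Alas2, the membrane gene Slc4a1, the transcription factor genes Klf1 and Gata1, and the receptor gene Epor. They were taken by gene symbol from the noncontrol spots of the scanner output, which gave 9 genes of 35019 and 9 probes of 55680, with 1 probe for each gene. Total RNA of the posterior frontal (PF) suture, the midline joint between the frontal bones, was hybridised in a single colour (Cy3) to mouse Agilent arrays of 60-base probes. The 3 groups were C57BL/6 wild type (Runx2+/+) at postnatal age P5, C57BL/6 wild type at P7 and C57BL/6 Runx2+/- at P7, with 1 array each. Runx2 encodes a transcription factor without which osteoblasts do not form, and Runx2+/- mice have a functional copy on 1 chromosome. The labels describe neither the Runx2 allele nor the number of mice behind an array, and all 3 arrays lay on 1 slide. No group has a replicate, so each difference is between 2 hybridised samples and carries no p-value.

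Hemoglobin is a tetramer of alpha and beta globin chains that each hold a heme, and red cell precursors make it at very high level until shortly after they lose the nucleus. Reticulocytes still carry globin mRNA in the blood, and blood and marrow can bring globin transcripts into the RNA of a bone sample. GATA1 and KLF1 are the transcription factors that switch on globin, heme and membrane genes in erythroid precursors, and erythropoietin, acting through its receptor EPOR, keeps those precursors alive.

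The probes decide what each globin value means, and the globin genes are close relatives, so the 4 globin probes are shown first. Hba-a1 was read by a coding stretch that starts at base 161 of its transcript (mm9 chr11:32183955-32184014, plus strand). Hba-a2 was read at its 3′ end, from base 497 (chr11:32197245-32197304, plus strand), and the last 30 bases of its probe are given with the polyadenylation signal AATAAA in capitals. Hbb-b1 was also read at the 3′ end, from base 503 (chr7:110961105-110961164, minus strand), and its last 30 bases are given. Hbb-b2 was read by a coding stretch from base 195, and the files give this probe no mm9 position. All are written 5′ to 3′ in the sense of the transcript.
Hba-a1 probe: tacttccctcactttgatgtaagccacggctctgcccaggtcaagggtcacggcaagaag
Hba-a2 probe, last 30 bases: gtctttgAATAAAgcctgagtaggaagaag
Hbb-b1 probe, last 30 bases: tatgtcccctagagaaaaactgtcaattgt
Hbb-b2 probe: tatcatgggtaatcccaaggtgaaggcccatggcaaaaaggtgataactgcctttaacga
None of the 9 probes shared a run of 20 bases with any other probe on the array. A probe that is unique on the array can still bind the mRNA of a sister gene. The alpha globin transcripts are near copies of each other in the coding region, as are the beta globin transcripts, so a signal may hold both genes of a pair, and this was not tested. The names of the beta probes are old. The RefSeq transcript behind the Hbb-b1 probe is named Hbb-bt in the GRCm38.p6 annotation, and C57BL/6 mice carry the Hbb-s haplotype, in which the adult beta genes are Hbb-bs and Hbb-bt. Which of these the Hbb-b2 probe read was not determined, so the 4 globin probes need not stand for 4 genes.

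The windows upstream of the globin genes are shown because all 4 globins were lower at P7 than at P5 in wild type, and because GATA1 and KLF1, whose genes are described further on, recognise motifs of the GATA and CACCC kind. Each window holds the 250 bases before the transcript start in RefSeq's GRCm38.p6 annotation. Capitals mark matches on either strand to the GATA motif GATAA, the CACCC box CACCC, the CCAAT box CCAAT and the TATA box TATAA. No base lay in more than 1 match.
Hba-a1, chr11:32283422-32283671, plus strand: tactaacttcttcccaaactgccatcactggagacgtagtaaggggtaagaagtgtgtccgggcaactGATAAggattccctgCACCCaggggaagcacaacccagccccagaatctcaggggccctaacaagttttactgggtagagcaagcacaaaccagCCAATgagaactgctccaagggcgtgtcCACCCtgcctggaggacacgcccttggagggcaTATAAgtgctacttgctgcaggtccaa
Hbb-bt, chr7:103813924-103814173, minus strand: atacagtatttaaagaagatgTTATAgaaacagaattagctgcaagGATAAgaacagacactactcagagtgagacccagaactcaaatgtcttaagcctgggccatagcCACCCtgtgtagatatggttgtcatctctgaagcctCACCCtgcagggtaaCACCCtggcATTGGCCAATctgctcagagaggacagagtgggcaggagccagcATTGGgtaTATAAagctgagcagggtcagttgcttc
Hbb-bs, chr7:103827929-103828178, minus strand: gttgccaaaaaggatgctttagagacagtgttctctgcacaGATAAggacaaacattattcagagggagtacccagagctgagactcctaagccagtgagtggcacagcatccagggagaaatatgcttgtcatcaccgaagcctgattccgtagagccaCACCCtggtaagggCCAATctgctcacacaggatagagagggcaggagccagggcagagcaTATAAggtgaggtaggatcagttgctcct
These comparisons used the whole table entries, which also hold the first bases of the transcript. Hba-a1 and Hba-a2 were identical over the 297 bases that overlapped, so a single alpha window is printed. Hbb-bt and Hbb-bs were 56.2% identical over 299 bases, set side by side without gaps at the offset with the fewest mismatches. The Hba-a1 window held GATAA 182 bases before the start, CCAAT 88 bases before it and TATAA 27 bases before it. In the Hbb-bs window these motifs lay 209, 76 and 29 bases before the start. Over all 32851 promoter windows of this length, GATAA occurred in 22.6%, CACCC in 52.0%, CCAAT in 33.8% and TATAA in 22.8%. Of the 8 genes with a window, GATAA was found in all except Gata1, CACCC in all 8, CCAAT in the globin genes and Klf1, and TATAA in the globin genes and Alas2. A match is a description of these letters and not of a bound site.

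The arrays differed in brightness, which sets how the values below must be read. The number of probes well above background was 22316 of 55680 at P5, 16257 at P7 in wild type and 26352 at P7 in Runx2+/-, and the 75th percentile of all processed signals lay at 52.1, 22.8 and 124 intensity units. Spiked-in control RNAs did not follow this order, because their median fell by 0.21 log2 units from P5 to P7 wild type and by 1.34 from P7 wild type to Runx2+/-, while the 75th percentile fell by 1.19 and then rose by 2.45. Signals are therefore given as measured, in intensity units with the scanner software's own error, and then as scaled levels, in log2 units above the 75th percentile of the same array. The software's error was close to 10% of a bright signal, which gives an error of 0.20 for a log2 difference between arrays. Repeated spots of the same probe gave an SD of 0.21 for the age difference and 0.19 for the genotype difference, and separate probes of a gene were further apart, with root-mean-square SDs of 0.46 over 2351 genes and 0.56 over 2362 genes. All 8 osteoblast markers and 5 of 6 suture mesenchyme markers of the labelled tissue were well above background on every array. Of the 9 genes described here, 7 were so on all 3 arrays, Gata1 on 2 and Klf1 on none. The summed level of the osteoblast markers, as multiples of the 75th percentile, was 4101 at P5, 6261 at P7 in wild type and 1581 in Runx2+/-. Of the 8, 6 were at least 2-fold lower in Runx2+/- than in wild type at P7 (median -1.84), against 13.8% of all 14420 genes compared. The size of these differences changed with the processing. Over 11 settings Bglap2 ranged from -2.57 to -1.17, Col1a1 from -2.55 to -1.22, Alpl from -2.27 to -0.78 and Col1a2 from -1.99 to -0.12. Col1a2 was the brightest of the 8, and before scaling it was higher in Runx2+/- (162985 units) than in P7 wild type (112154). The part of the osteoblast markers in the globin differences was not tested.

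Hba-a2 encodes alpha globin and was measured at 65355 ± 6536 intensity units at P5, 20026 ± 2003 at P7 in wild type and 69633 ± 6963 at P7 in Runx2+/-. Its scaled levels were 10.29, 9.78 and 9.13. As measured, the P7 wild-type array was the low one and the other arrays lay within the software's error of each other, whereas the scaled levels descended from P5 wild type through P7 wild type to Runx2+/-. Hba-a1, its sister gene on the same chromosome, was measured at 17703 ± 1770, 5232 ± 523 and 16500 ± 1650 intensity units on the same arrays, with scaled levels of 8.41, 7.85 and 7.05. It had the same order as Hba-a2 after scaling. Neighbouring scaled levels of both genes were more than 2 technical errors apart, by 0.56 and 0.79 for Hba-a1 and by 0.51 and 0.65 for Hba-a2.

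Hbb-b1 was measured at 10383 ± 1038 intensity units at P5, 2195 ± 220 at P7 in wild type and 11709 ± 1171 at P7 in Runx2+/-. Scaled, these were 7.64, 6.59 and 6.56. The P7 arrays were alike within 0.03 ± 0.20 after scaling, and both were below P5. Hbb-b2 was measured at 2268 ± 227, 383 ± 38.4 and 2568 ± 257 intensity units, with scaled levels of 5.44, 4.07 and 4.37. The P5 array was again the highest after scaling, and the P7 arrays were 0.30 ± 0.20 apart, within 2 technical errors. Before scaling, the 4 globin signals on the Runx2+/- array were within 1.07-fold to 1.13-fold of those on the P5 array, and on the P7 wild-type array they were 3.26-fold to 5.92-fold below P5. In tissue RNA, fewer erythroid cells and less RNA per cell cannot be told apart.

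**Figure D1:**
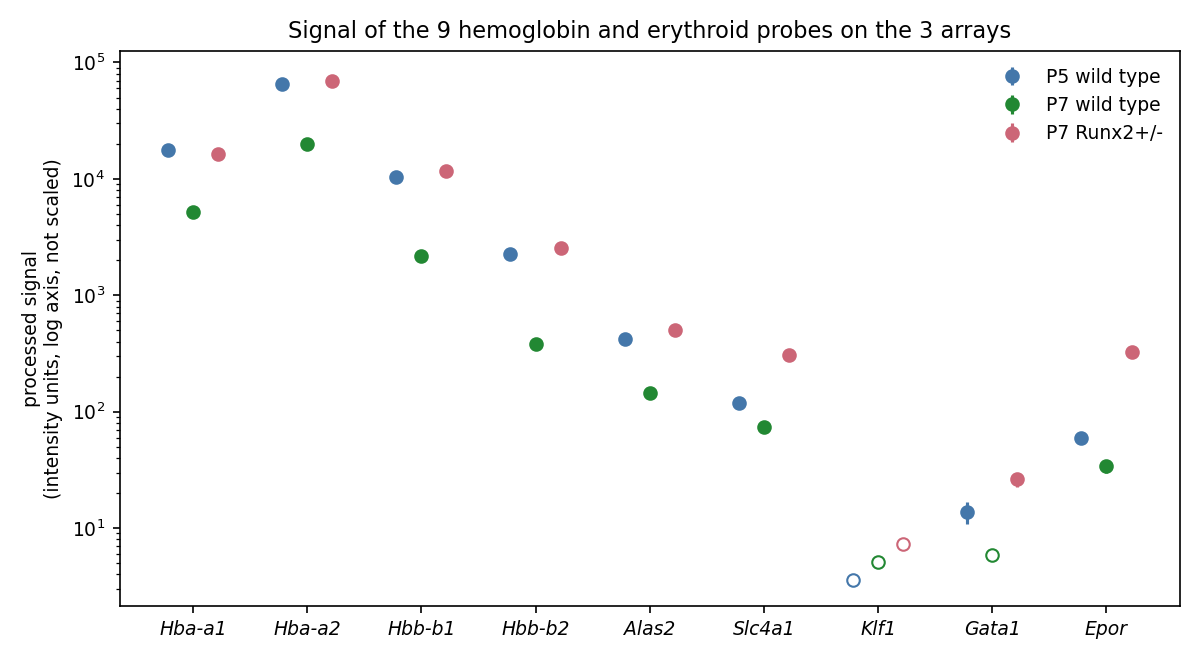
Processed signal of the 9 genes on the 3 arrays (P5 and P7 wild type and P7 Runx2+/-), in intensity units on a log axis, before scaling. Points are single arrays with the scanner software's error, and open circles are spots not well above background; for all 4 globins the P7 wild-type array is the low one and the other arrays lie close together.

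The beta globins differed more than the alpha globins between the wild-type ages. Hbb-b2 was 2.59-fold lower at P7 than at P5 (log2 difference -1.37 ± 0.20) and Hbb-b1 was 2.07-fold lower (-1.05 ± 0.20), while Hba-a1 was 1.48-fold lower (-0.56 ± 0.20) and Hba-a2 1.43-fold lower (-0.51 ± 0.20). The mean beta difference was 0.67 below the mean alpha difference, written -0.67, and this contrast, chosen after the data were seen, stayed between -0.80 and -0.65 over 11 processing settings. All 4 globins were lower at P7 in each of those settings. The smallest difference of Hba-a2 was -0.24, in the authors' deposited table, and the largest of Hbb-b2 was -2.01.

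Between the genotypes at P7, the beta globins had higher differences than the alpha globins, while the signs of Hba-a1, Hba-a2 and Hbb-b1 changed with the scaling. Hba-a1 was 1.73-fold lower on the Runx2+/- array (-0.79 ± 0.20), although it was 0.41 higher with normexp background correction. Hba-a2 was 1.57-fold lower (-0.65 ± 0.20), but higher by 0.15 with quantile normalization, by 0.59 with normexp and by 0.087 in the authors' deposited table. Hbb-b1 differed by -0.03 ± 0.20 and ranged from -0.11 to 1.12 over the 11 settings. Hbb-b2 was 1.23-fold higher (0.30 ± 0.20), with a range of 0.18 to 1.40. The sign of each alpha difference and that of Hbb-b1 thus depended on the scaling, whereas the mean beta difference exceeded the mean alpha difference by 0.85, and by 0.40 to 0.85 over the 11 settings. The P7 wild-type array was the one with the lowest beta globin signal relative to alpha in both comparisons, which share that array.

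The array also held a probe for Hbb-bs, named Beta-s in the files, and a probe for the globin chaperone. The Hbb-bs probe starts at base 4 of its transcript and matched the Hbb-bs start over all 46 bases that could be compared, while it had 7 mismatches in 45 bases of the Hbb-bt start. It was measured at 785 ± 78.5 intensity units at P5, 108 ± 11.4 at P7 in wild type and 1200 ± 120 at P7 in Runx2+/-. Like the other beta probes it was lower at P7 than at P5, by 3.18-fold (-1.67 ± 0.21). It was 2.04-fold higher in Runx2+/- than in wild type at P7 (1.03 ± 0.21), with a range of 0.82 to 1.75 over the 11 settings, so it was higher in each but not always by 2-fold. Ahsp, which encodes the chaperone that holds free alpha chains until beta chains bind them, was measured at 139 ± 14.1, 69.1 ± 7.55 and 379 ± 38.0 intensity units. Its scaled differences were 0.19 ± 0.22 for age and 0.00 ± 0.21 for genotype, so Ahsp was not lower at P7 as the globins were, except with normexp scaled to the 75th percentile, which gave -0.17.

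The 3 beta probes were ordered by their position in the transcript, an order noticed after the values were seen. From the probe at base 503 (Hbb-b1) to base 195 (Hbb-b2) and base 4 (Hbb-bs), the age difference went from -1.05 to -1.37 and -1.67, and the genotype difference from -0.03 to 0.30 and 1.03. The alpha probes, at bases 161 and 497, had age differences of -0.56 and -0.51 and genotype differences of -0.79 and -0.65. The alpha pair thus differed little with position. The 3 beta probes need not stand for 3 genes, because which beta gene the Hbb-b2 probe read was not determined. The parts of probe position and of gene in the differences were not tested.

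**Figure D2:**
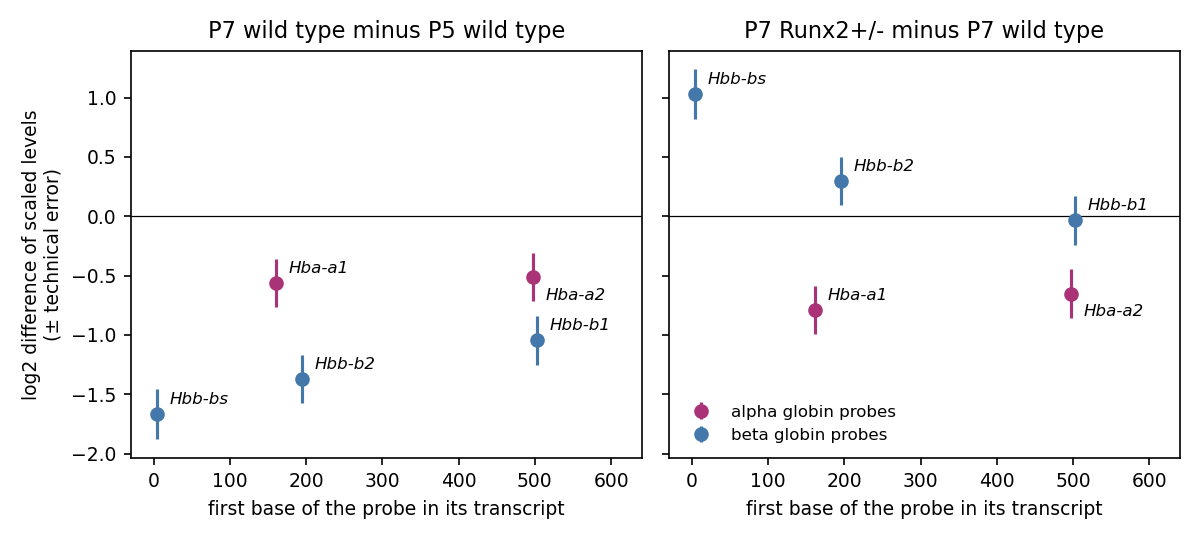
Scaled log2 difference of each globin probe, with the technical error of a difference between 2 arrays, against the first base of the probe in its transcript, for age (P7 wild type minus P5) at left and for genotype (Runx2+/- minus wild type at P7) at right. The beta probes spread from -1.05 to -1.67 for age and from -0.03 to 1.03 for genotype, and the alpha probes lie at -0.56 and -0.51 for age and at -0.79 and -0.65 for genotype, where the sign of both alpha differences and of Hbb-b1 changes under other scalings.

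Alas2, the erythroid form of the first enzyme of heme synthesis, lies on chromosome X (probe at chrX:147004993-147005052, plus strand). It was measured at 419 ± 42.0 intensity units at P5, 145 ± 14.9 at P7 in wild type and 500 ± 50.1 at P7 in Runx2+/-, with scaled levels of 3.01, 2.67 and 2.01. The order was that of the alpha globins, with the P7 wild-type level within 2 technical errors of P5 and the Runx2+/- level below both. Alas2 was 1.26-fold lower at P7 than at P5 (-0.34 ± 0.21) and 1.59-fold lower in Runx2+/- than in wild type at P7 (-0.66 ± 0.21), although it was 0.23 higher there with normexp. Alas1, the form of the enzyme that other cells use, differed by 0.02 for age and 0.60 for genotype with its brighter probe, while its dimmer probe had scaled levels of 0.49, 1.40 and 0.14 on the 3 arrays, so the probes disagreed in direction for genotype.

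Slc4a1 encodes band 3, the anion exchanger that anchors the red cell skeleton to the membrane (probe at chr11:102210256-102210315, minus strand). It was measured at 118 ± 12.2, 74.0 ± 8.11 and 309 ± 31.1 intensity units at P5, at P7 in wild type and in Runx2+/-, with scaled levels of 1.19, 1.70 and 1.32. Unlike the globins it was highest on the P7 wild-type array after scaling. It was 1.43-fold higher at P7 than at P5 (0.51 ± 0.22), a difference that shrank to 0.02 in 1 setting. It was 1.31-fold lower in Runx2+/- than in wild type at P7 (-0.39 ± 0.21), or 0.33 higher with normexp.

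The erythroid transcription factors were at or near the detection limit. Klf1 (probe at chr8:87428881-87428940, plus strand), whose product switches on globin genes, was read at 3.55, 5.08 and 7.24 intensity units and was well above background on no array. No order can be given for it. Gata1 (probe at chrX:7536392-7536451, minus strand) was read at 13.8 ± 3.02 intensity units at P5 and 26.2 ± 3.79 in Runx2+/-. Its reading of 5.90 in P7 wild type was not well above background. The lowest signals that counted as well above background were between 12 and 13.3 units on the 3 arrays. Order was judged on scaled levels, where the lowest such value on the dim P7 wild-type array was -0.78. Gata1 lay below that value at P5 and in Runx2+/-, so it has no order between P7 wild type and either other array. Its scaled levels at P5 and in Runx2+/- were -1.92 and -2.25, which differ by less than the technical error of 0.38.

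Epor, the erythropoietin receptor gene (probe at chr9:21763422-21763481, minus strand), was highest in Runx2+/-. It was measured at 59.6 ± 6.41 intensity units at P5, 34.1 ± 4.43 at P7 in wild type and 327 ± 32.8 at P7 in Runx2+/-. Scaled, these were 0.19, 0.58 and 1.39, so the Runx2+/- array was the high one both before and after scaling. Epor was 1.76-fold higher in Runx2+/- than in wild type at P7 (0.81 ± 0.24) and 1.31-fold higher at P7 than at P5 (0.39 ± 0.24). It was higher in both comparisons in each of the 11 settings, with ranges of 0.25 to 0.96 for genotype and 0.03 to 0.47 for age. After scaling, Epor was 1.20 higher on the Runx2+/- array than on the P5 array, a pair that differs in both age and genotype. Hba-a1, Hba-a2, Hbb-b1, Hbb-b2 and Alas2 were lower there by 1.36, 1.16, 1.08, 1.08 and 1.0. Before scaling, those genes differed by -0.10, 0.09, 0.17, 0.18 and 0.25, and Epor by 2.46. In the authors' deposited table they were also lower in Runx2+/-, Hba-a2 the least, with 102635 at P5 and 92565 in Runx2+/-. A range over the 11 settings was not computed for this pair.

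**Figure D3:**
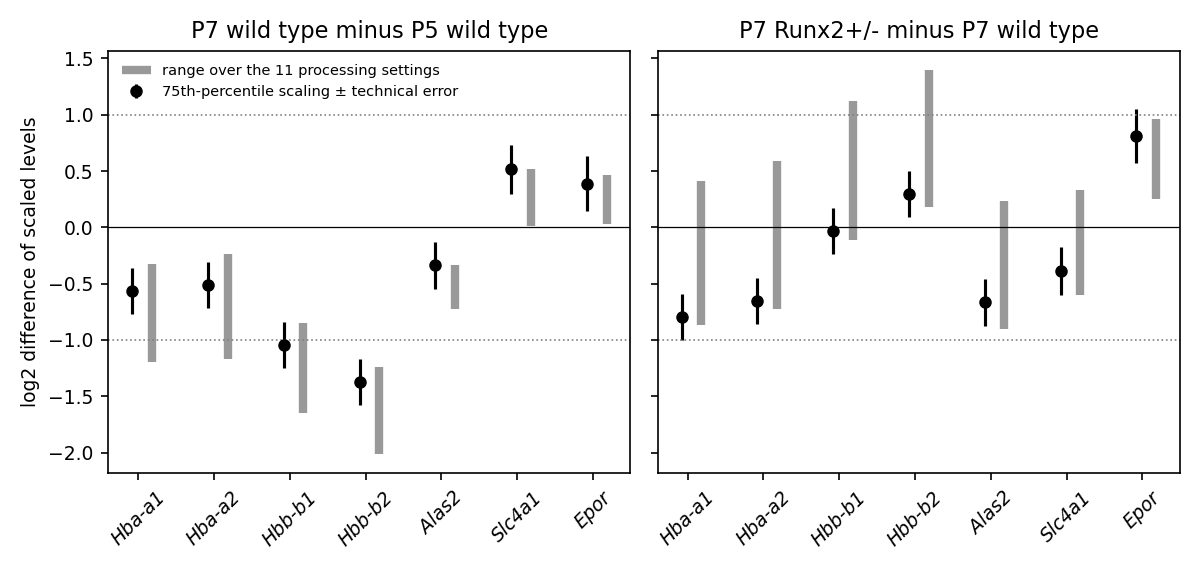
Scaled log2 differences of the 7 genes with an order between arrays, for age (P7 wild type minus P5) at left and for genotype (Runx2+/- minus wild type at P7) at right. Points are the values with 75th-percentile scaling and their technical error, grey bars are the range over 11 processing settings, and dotted lines mark 2-fold; the globin and Alas2 bars stay below 0 for age, while 5 of the 7 genotype bars cross 0.

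Taking the 9 genes as a list, the differences past 2-fold were both for age and both downward. Of the 7 genes with an order, 2 (Hbb-b1 and Hbb-b2) were at least 2-fold lower at P7, and none was at least 2-fold higher. The probes of those 2 may read the same transcripts, so they may not be separate genes. Of all 14332 genes with an order, 9.61% were 2-fold or more apart, 3.29% downward and 6.33% upward. The median difference of the 7 genes was -0.51, and that of all genes was 0.03. Bright genes leaned slightly lower, with a median of -0.14 and an SD of 0.47 in the brightest of 8 equal groups by level. The count of 2 became 1 with quantile normalization, with cyclic loess and in the authors' deposited table, where Hbb-b2 was the gene left.

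In the genotype comparison none of the 7 genes was 2-fold apart in either direction. Of all 14420 genes with an order, 19.0% were, 5.20% upward and 13.8% downward in Runx2+/-. The median of the 7 genes was -0.39 against 0.13 for all genes, but it was 0.15 with quantile normalization, 0.59 with normexp and 0.087 in the authors' deposited table. With normexp, 2 of the 7 genes were at least 2-fold higher.

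The wider erythroid programme was described with 7 lists that together held 89 genes on the array. For age, 54 had an order, of which 3 passed 2-fold upward and 2 downward, and the median was 0.01. For genotype, 55 had an order, of which 2 passed 2-fold upward in Runx2+/- and 3 downward, and the median was 0.18. These medians were close to those of all genes, 0.03 and 0.13, and turned negative under several settings. Over all genes with an order, 6.33% passed 2-fold upward and 3.29% downward for age. For genotype these shares were 5.20% and 13.8%.

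Among embryonic and minor globins, Hba-x, Hbb-bh1, Hbb-y, Hbq1a and Hbq1b were well above background on no array, which left Hbb-bs and Ahsp of 7 genes. The 14 heme synthesis enzymes and transporters were all well above background on all arrays, and their medians were 0.03 for age and 0.28 for genotype. Within that list 13 genes lay within 2-fold in each comparison. The exception, Flvcr1, which encodes a heme exporter, was 4.07-fold higher at P7 than at P5 and 2.90-fold lower in Runx2+/- than in wild type at P7, from dim signals of 16.2, 28.9 and 54.3 intensity units. With normexp these Flvcr1 differences were 0.69 and -0.78, both within 2-fold. Among enzymes that act after ALAS2, Alad, Urod, Fech and Cpox differed by -0.09, -0.11, 0.13 and 0.52 for age.

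Several core genes of the red cell skeleton were not detected. Of 18 membrane and skeleton genes, 9 were well above background on no array, among them Sptb, Ank1, Epb42, Rhag, Add2, Tmod1 and Icam4. The 7 with an order had medians of 0.48 for age and -0.04 for genotype, and none was 2-fold apart for age. Ermap, which encodes an erythroid membrane protein of the immunoglobulin superfamily, was 2.08-fold lower in Runx2+/- than in wild type at P7 (-1.06, or -0.056 with normexp). Ank1, which encodes the ankyrin that ties band 3 to the skeleton, was thus undetected on arrays where Slc4a1 itself was measured.

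Of 12 further erythroid transcription factors and partners, 7 had an order in each comparison, with medians of 0.12 and 0.37. Nfe2, whose product acts at the globin locus control region and in platelets, was measured at 136 and 132 intensity units at P5 and in Runx2+/-. Its P7 wild-type signal was not well above background, so it was at least 4.48-fold lower at P7 than at P5 and at least 1.82-fold higher in Runx2+/-. The age bound of Nfe2, -2.16, was -1.12 with normexp and -0.82 with normexp scaled to the median. Tal1, Lmo2 and Ldb1, which form a complex with GATA1, were measured on every array and lay within 2-fold, at 0.12, -0.27 and 0.42 for age. Sox6 was not detected on any array.

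The erythropoietin signalling list had medians of 0.29 for age and 0.18 for genotype, with 6 and 7 of 11 genes in order. Epo itself, made mainly by kidney and fetal liver, and Erfe, the erythroblast hormone that lowers hepcidin, were well above background on no array. Stat5a, which encodes a transcription factor activated by the receptor, was 2.09-fold higher at P7 than at P5 (1.06, or 0.33 with normexp). Kit, the receptor for stem cell factor, was at least 2.61-fold higher in Runx2+/- than in wild type at P7 (1.38, or 0.69 with normexp). Iron genes had medians of -0.19 and -0.41, with none of 7 at least 2-fold apart. Among them the transferrin receptor gene Tfrc, through which erythroblasts take up iron, differed by -0.67 for age and -0.74 for genotype with its brightest probe, but another probe had scaled levels of -0.83, -0.20 and -0.18 on the 3 arrays and showed neither fall, and Hamp was not detected.

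Late erythroid enzymes and clearance genes had medians of -0.18 for age and 0.11 for genotype over 11 of 16 genes. Hemgn, an erythroid nuclear protein gene, was 2.22-fold higher at P7 than at P5 (1.15, or 0.38 with normexp). Cat (catalase) was 4.12-fold lower in Runx2+/- than in wild type at P7 with its brighter probe, while its dimmer probe had scaled levels of -0.04 and -0.39. The brighter probe's difference of -2.04 was -0.77 with normexp. Alox15, Pklr and Trim58 were well above background on no array.

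**Figure D4:**
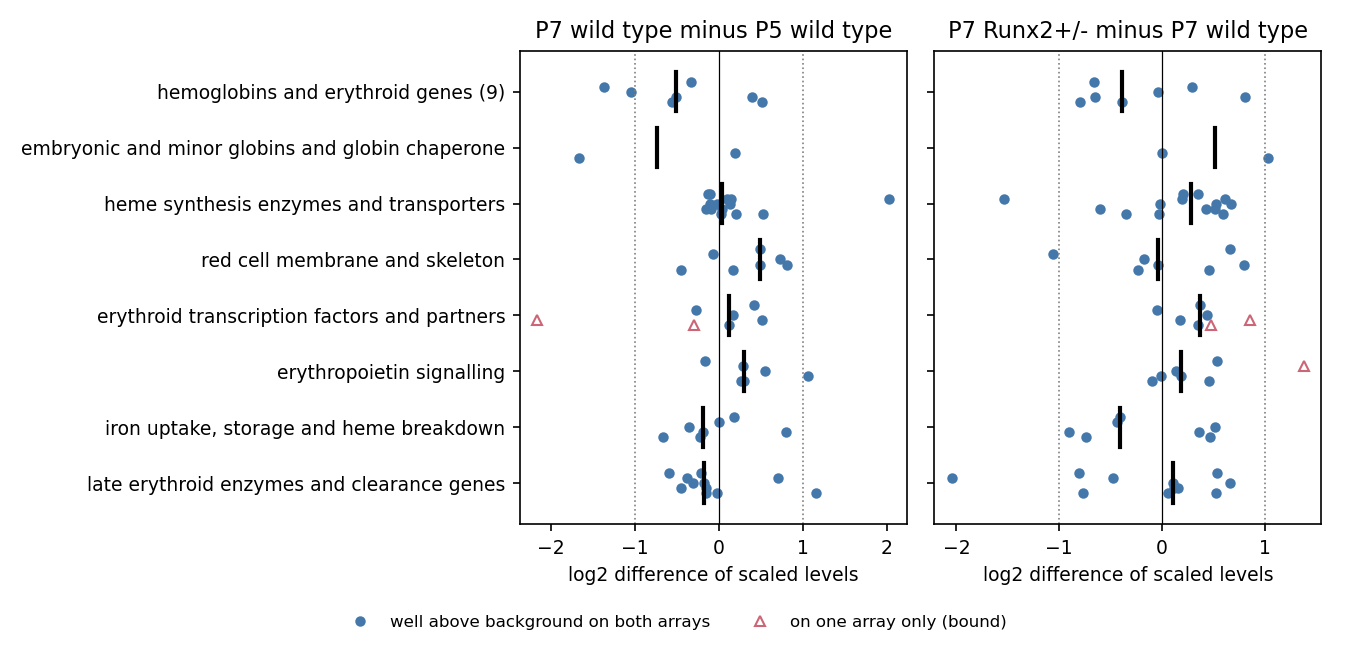
Scaled log2 difference of each gene with an order, by list, for age (P7 wild type minus P5) at left and for genotype (Runx2+/- minus wild type at P7) at right. Circles are genes well above background on both arrays, triangles are lower bounds from genes so on 1 array, vertical bars are list medians and dotted lines mark 2-fold; list medians lie between -0.74 and 0.52, and the sign of the medians near 0 changes under other scalings.

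Markers of other blood and vessel cells moved on the same arrays, and their part in the globin differences was not tested. The 10 neutrophil markers moved most. Their summed level, as multiples of the 75th percentile, was 916 at P5, 79.3 at P7 in wild type and 355 at P7 in Runx2+/-. At P7, 8 of 10 were at least 2-fold lower than at P5, led by Ltf (21.6-fold) and Ngp (18.2-fold), against 3.29% of all genes with an order. In Runx2+/- 7 of 10 were 2-fold or more above P7 wild type, led by Camp (12.9-fold), against 5.20% of all genes. Elane, expressed in neutrophil precursors, went the other way, 1.67-fold higher at P7 than at P5 and 2.19-fold lower in Runx2+/- than in wild type. The summed level of the 4 globins was 1838, 1223 and 808 on the same arrays with 75th-percentile scaling. With that scaling the globin sum was lowest on the Runx2+/- array and the neutrophil sum on the P7 wild-type array. Hba-a2 was the brightest of the 4, and its genotype difference changed sign with the scaling (0.087 in the authors' deposited table). The array with the lowest globin sum may therefore change too.

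Endothelial markers, 8 of 8 detected, summed to 130, 124 and 216. In Runx2+/- 5 of 8 were at least 2-fold higher than in wild type at P7, against 5.20% of all genes with an order. Kdr was 3.92-fold lower there, though 1.87 log2 units higher when its most 3′ probe was used. Macrophage markers, 9 of 10 detected, summed to 80.5, 89.1 and 105. Single markers moved more: Lyz2 was 4.85-fold lower at P7 than at P5 and Cd68 was 2.31-fold higher. In Runx2+/- 3 of 9 (Lyz2, Mrc1 and Vcam1) were at least 2-fold higher than in wild type at P7. Over the 11 settings Lyz2 ranged from 0.81 to 2.10 there, Mrc1 from 1.13 to 1.85 and Vcam1 from 0.86 to 1.83. Cd68 was 2.15-fold lower, with a range of -1.31 to 0.082. B cell markers, 7 of 8 detected, summed to 13.9, 8.81 and 16.7, and megakaryocyte and platelet markers, 7 of 9 detected, to 32.0, 34.2 and 54.3. Gp5 and Gp6 of the last list were well above background on no array. Mast cells use GATA factors and Kit as well, and 5 of 8 mast cell markers were detected, with sums of 13.8, 23.9 and 31.9. Cpa3, Mcpt4 and Tpsb2 were 2.18-fold, 2.05-fold and 2.31-fold higher at P7 than at P5, but within 2-fold with normexp (0.44, 0.26 and 0.41), and Hdc was 2.10-fold and Cma1 1.58-fold lower. In the genotype comparison Cma1 was 4.05-fold higher in Runx2+/- than in wild type at P7 (2.02, or 0.61 with normexp scaled to the median), while Tpsab1, Ms4a2 and Fcer1a were not detected. Of 4 eosinophil markers on the array, Prg2 alone was detected, on the Runx2+/- array.

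Sex-linked transcripts also differed between the arrays. They were chosen after their values were seen, and are given because Alas2 and Gata1 are on chromosome X. Xist, expressed from the inactive X of females, was read at 284, 87.4 and 14.5 intensity units at P5, at P7 in wild type and in Runx2+/-. The Y-linked Ddx3y was read at 28.4, 3.28 and 429 units, of which the P7 wild-type reading was not well above background. Eif2s3y, also Y-linked, was read at 41.0, 3.04 and 642 units, again with the P7 wild-type reading not well above background. The labels give no sex for these mice. The P7 arrays differed in these sex-linked transcripts as well as in genotype, so sex and genotype cannot be told apart in that comparison. The wild-type arrays differed in whether Ddx3y and Eif2s3y were well above background, so sex and age cannot be told apart between them either. The part of sex in the differences was not tested.

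The genes most like the globins were sought among 9846 of the 12838 genes well above background on all 3 arrays. Genes with provisional names, such as those starting with LOC, were left out, and the genes described here were not ranked. Likeness was the distance between a gene's age and genotype differences and those of the mean of the 4 globins, -0.87 and -0.30. The 5 nearest were Pstpip2 (-0.86 and -0.32), Zfp518a (-0.88 and -0.26), 9930111J21Rik1 (-0.93 and -0.31), Tnni2 (-0.95 and -0.30) and Mllt10 (-0.82 and -0.24). Those nearest to Alas2 were D130012P04Rik, Septin10, C530014P21Rik, Taf7l and Sema6a, at distances of 0.02 to 0.04. When a gene's probes were averaged, the age differences of Pstpip2, Zfp518a, 9930111J21Rik1 and Sema6a turned positive, at 0.29, 0.99, 0.088 and 0.31. With 2 differences for each gene, likeness of this kind is a description of these arrays alone.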

How the data were processed

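Each group's total RNA was amplified, labelled with Cy3 and put on 1 array, per the labels' protocols. The file headers name Agilent Feature Extraction 10.7.1.1 as the image software, and the submitters' processing notes name version 9.5.1.1. The main values are the processed signals that the authors deposited for every spot, linear intensity values after the software's background correction, with an error and flags for each, per the file headers. A series table of processed intensity values, which the authors deposited with no scale or normalization stated in its header, served as an alternative.

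Control spots and outlier flags were left out, spots of a probe were averaged as log2 values, and each array's 75th percentile was subtracted. A gene with several probes was represented by the brightest. Genes well above background on both arrays of a comparison gave a difference. A gene so on 1 array was set against the lowest value well above background and kept as a bound (at least N-fold) if its array was the higher. Other genes have no order. A call means at least 2-fold. With 1 array per group no test was run. The 2-fold calls were tested on simulated data, with changes put into genes well above background on all arrays. The simulated arrays shared a single mean profile, with noise of the size seen between repeated spots. Differences in array brightness, spread between probes of a gene, bounds of changed genes and list calculations were therefore not tested in this way.

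Names of 27234 probes were taken through RefSeq accessions (GRCm38.p6). Probe coordinates are those of the files (mm9), and no mm9 annotation was used, so exons were not looked up. The genes described, the 7 erythroid lists, the 9 marker lists, the naming rule and the alternatives were all chosen with earlier results of these data known. The rule named the 9 genes, up to 4 genes per list among those at least 2-fold apart, undetected list members, and the 5 genes nearest to the globin mean and to Alas2. Sex-linked genes were chosen after their values were seen. Of the list genes, Hbb-bt and Siglec5 have no probe under their own name, and the values of some list genes are not reported here. Alternatives were quantile normalization, cyclic loess, normexp background correction (offset 50) with 2 scalings, another percentile, the authors' deposited table, other floors, other probe rules, and thresholds of 1.5-fold and 3-fold. Computations used R 4.3.3 with limma 3.58.1, Python 3.11.15, numpy 2.4.6 and pandas 2.3.3.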

Additional observations from a re-analysis of the deposited data

How the results depend on the processing

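No paired analysis was possible because each group has 1 array, and for the same reason no array could be left out. Having 1 array per group limits the precision, and signal over background limits what can be said of the dim genes Klf1, Gata1 and Flvcr1. For age, the median of the 7 ordered genes, -0.51, was -1.17 with normexp scaled to the 75th percentile and -0.87 with normexp scaled to the median. The count of 2 genes at least 2-fold lower became 1 with quantile normalization, cyclic loess and the authors' deposited table, 4 with normexp and 0 at a 3-fold threshold, and without the floor 1 gene was at least 2-fold higher. That gene was Klf1, which was not well above background. For genotype, the median of -0.39 became -0.12 with normexp scaled to the median and reversed to 0.15 with quantile normalization, 0.59 with normexp and 0.087 in the authors' deposited table. The 0 genes at least 2-fold higher became 2 with normexp and 1 at a 1.5-fold threshold, and the 0 lower became 1 without the floor, again Klf1, and 3 at 1.5-fold. Among the 9 genes and the called list genes, those that changed sign for genotype were Hba-a1 (0.41), Hba-a2 (0.59), Alas2 (0.23), Slc4a1 (0.33), Hbb-b1 (1.12) and Cd68 (0.082) with normexp, Hbb-b1 (0.41) with normexp scaled to the median, Hba-a2 (0.15) and Hbb-b1 (0.26) with quantile normalization, Hba-a2 (0.087) and Hbb-b1 (0.24) in the authors' deposited table, Hbb-b1 (0.052) with cyclic loess, and Kdr (1.87) when the most 3′ probe stood for it. Of the genes within 2-fold, 9930111J21Rik1 (0.50), C530014P21Rik (0.50), Mllt10 (0.44), Taf7l (0.44), Tnni2 (0.076) and Sema6a (0.010) turned positive for genotype with normexp, Septin10 (0.031) turned positive for age with normexp scaled to the median, and Ahsp ranged from -0.22 to 0.60 for genotype. The beta minus alpha contrast for genotype, 0.85, fell in size to 0.40 with quantile normalization, 0.57 with cyclic loess and 0.41 in the authors' deposited table. The median of the wider erythroid lists, 0.01 for age, was -0.017 with quantile normalization, -0.055 with the 75th percentile of detected probes, -0.021 with cyclic loess, -0.27 with normexp and -0.020 in the authors' deposited table. For genotype, 0.18, it was 0.67 with normexp, -0.024 with cyclic loess, -0.029 with normexp scaled to the median and -0.018 without the floor. Over all genes, 65.8% of the age calls and 27.4% of the genotype calls were higher, against 3.3% and 89.2% with normexp, and normexp moved the median of all genes to -0.25 for age and 0.62 for genotype. The count over all genes of 907 higher and 471 lower for age became 32 and 937 with normexp, and 750 and 1988 for genotype became 4346 and 525. The cause of these changes was not tested.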
